A study of Homo sapiens with 18 samples.

Results

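The RNA of 44 focal adhesion genes was examined in HCT-116, an established human colorectal carcinoma cell line, after changes to beta-actin or to the actin methyltransferase SETD3. The genes were chosen by name as the scaffold and signalling proteins of the adhesion plaque, with earlier results of these data known. All 44 were found by symbol among the 60683 gene rows of each deposited table, and 43 passed the filter on low counts in both tables. The member left untested was SORBS2 (an actin-linked scaffold of the vinexin family), which did not exceed 0.737 CPM (counts per 1e6 library counts after TMM scaling) in any library.

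Focal adhesions are the sites where integrins join the extracellular matrix to actin filaments. Talin and kindlin bind the integrin tails and activate them, vinculin and the tensins link them to actin, and the kinases FAK and SRC relay the signal through paxillin, p130Cas and Crk to small GTPases. Polymerised actin is needed for the plaque to grow, so the actin of the cell is both anchor and load.

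Poly(A) RNA was sequenced from 18 libraries, 3 in each of 6 groups, which the authors deposited as 2 tables. In the ACTB table all groups carried the actin knockout. ACTB-mut was labelled as over-expressing mutant actin, which is the H73A form per the series design. ACTB-WT was labelled as over-expressing wild-type actin, and Actin KO held the empty construct. In the SETD3 table, SETD3 KO2 and SETD3 KO1 were lines with the SETD3 knockout genotype and SETD3 CT was their control. SETD3 methylates a histidine of actin, the residue that H73A replaces. DMEM with fetal bovine serum was the growth medium. The labels gave neither the promoter of the actin constructs nor whether a line was a single clone or the replicates separate cultures. The p-values therefore measure only how far these libraries spread, which may be technical. SETD3 KO2 replicate 3 bore the cell line label HCT-117 and was kept in its group. In bulk libraries, fewer cells of a type and less RNA per cell cannot be told apart.

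Depth was 5144386 to 11271910 counts a library among the actin groups and 3389586 to 11652967 among the SETD3 groups, and the 44 genes took 0.144% to 0.202% of the counts of a library. ACTB RNA was 32 to 47.1 CPM in ACTB-mut and 23.2 to 31 CPM in ACTB-WT, against 14.9 to 24.9 CPM in Actin KO, and 662 to 1460 CPM in the SETD3 table, so the libraries labelled as over-expressing actin held little more ACTB RNA than the knockout. Directions drawn from ACTB-mut and ACTB-WT are therefore those of the libraries so labelled. SETD3 RNA was 15.6 to 27.7 CPM in SETD3 KO2 and 6.34 to 17.1 CPM in SETD3 KO1, against 14 to 36 CPM in SETD3 CT, and counts over a whole gene do not show an edit within it. Colorectal epithelial markers summed to 8000 to 13500 CPM in every library, while fibroblast markers summed to at most 15.3, blood markers to at most 34.4 and neural markers to at most 12 CPM. Of the 8 epithelial markers, VIL1 had no count in SETD3 CT and SETD3 KO2, and LGALS4 had none in SETD3 KO1. In the ACTB table all 8 had counts in each group. PTPRC, CD3E, COL3A1, DCN and LUM were at 0 in all 6 groups. The libraries that stood apart were in the SETD3 table: SETD3 KO2 replicate 1 was the shallowest, with 3389586 counts, and correlated with replicate 3 at 0.835 across genes, while SETD3 CT replicate 2 had 4898827 counts.

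Scaled by the length of the longest transcript, the plaque genes were led in every group by SORBS3 (vinexin, a vinculin-binding adaptor), at a mean of 51 to 83.1 CPM per kb over the 6 groups. Next by their highest group mean came CSK (the kinase that inactivates SRC family kinases) at 28.4 to 41.4, ILK (the pseudokinase at the centre of the ILK-PINCH-parvin complex) at 33.1 to 39.2 and PXN (paxillin) at 20.9 to 34.9 CPM per kb. The ranges of CSK, ILK and PXN overlapped, so their order is not fixed. In some families a single member carried most of the RNA. TLN1 had 8.66 to 15.8 CPM per kb, while its paralogue TLN2 had 0.107 to 0.413. PTK2 (FAK) had 4.56 to 7.65 CPM per kb and PTK2B (PYK2) had 0.292 to 0.857. BCAR1 (p130Cas) had 9.23 to 16.1 CPM per kb and its relative NEDD9 had 0.47 to 0.677. In others the levels were closer and the ranges over the groups overlapped. PARVA had 3.32 to 6.75 CPM per kb and PARVB had 2.25 to 4.64. FERMT1 had 2.37 to 3.76 CPM per kb and FERMT2 had 0.952 to 2.91. The highest FERMT2 mean, in SETD3 KO2, rested on replicate 1 at 35 CPM, beside 12 and 5.38 CPM. At the low end were PEAK1 (a scaffold pseudokinase), with 0.0547 to 0.165 CPM per kb, and SORBS2.

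**Figure D1:**
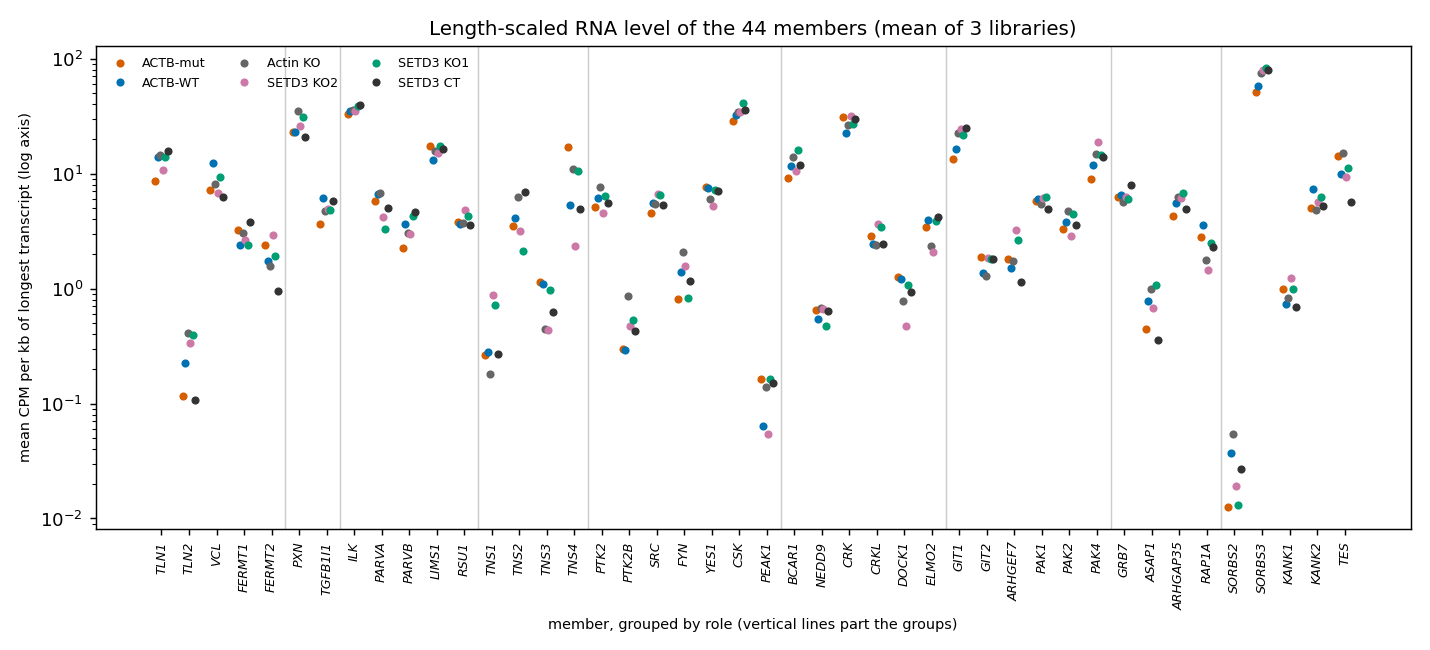
Mean TMM-scaled CPM per kb of the longest transcript (log axis) for the 44 genes, grouped by role, with 1 point per group of 3 libraries. SORBS3 lies at the top, at 51 to 83.1, and SORBS2 at the bottom.

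The tensins held the single member whose change passed the test. TNS4 (tensin-4 or cten, a short tensin that binds the integrin beta tail and lacks the actin-binding region of its relatives) rose in ACTB-mut relative to ACTB-WT. It measured 58.4, 65.9 and 81.8 CPM in the 3 ACTB-mut libraries, against 15.3, 21.6 and 28.6 CPM in the ACTB-WT libraries. Every ACTB-mut library was above every ACTB-WT library. The means were 68.7 ± 11.9 CPM in ACTB-mut and 21.8 ± 6.64 CPM in ACTB-WT (SD, n = 3 each). This was a log2 fold change of 1.65 (SE 0.28, 95% interval 1.05 to 2.25), with an adjusted p of 0.0092 in edgeR's quasi-likelihood test with Benjamini-Hochberg adjustment over all 13882 tested genes. It stood 42nd by p among them. TNS4 was 1 of 43 tested members called (adjusted p below 0.05) in this comparison, where 1.24% of all tested genes were called and 0.634% were called higher. The TNS4 gene (ENSG00000131746) lies on the minus strand of chromosome 17, from 40475828 to 40501597 in GRCh38 (GENCODE 29), and none of its annotated exons overlaps another gene. The call held in all 13 alternatives, with log2 fold changes of 1.45 to 1.88 and adjusted p from 2.08e-07 to 0.0486.

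Against Actin KO, which held the empty construct, the TNS4 values of the add-back groups lay on opposite sides. Actin KO had 50.3, 51.6 and 30.7 CPM, below all 3 ACTB-mut libraries and above all 3 ACTB-WT libraries. Neither difference passed the test. Relative to Actin KO it was 0.64 (95% interval 0.06 to 1.21, edgeR adjusted p = 0.369) for ACTB-mut and -1.01 (95% interval -1.6 to -0.42, edgeR adjusted p = 0.121) for ACTB-WT. Without Actin KO replicate 3 the ACTB-mut value was 0.42. The ACTB-WT difference passed without a filter on low counts (adjusted p = 0.0108) and in DESeq2 (adjusted p = 0.0347). These comparisons share the Actin KO libraries.

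The SETD3 knockout lines also had TNS4 values on opposite sides of their control. TNS4 measured 14.6, 8.76 and 5.3 CPM in SETD3 KO2 and 27.1, 37.6 and 64.5 CPM in SETD3 KO1, against 16.7, 26.8 and 16.7 CPM in SETD3 CT. The 3 groups did not overlap. Both lines share the CT libraries and the same labelled genotype. The log2 fold change was -1.1 (95% interval -2.09 to -0.1, edgeR adjusted p = 0.904) in SETD3 KO2 and 1.11 (95% interval 0.13 to 2.08, edgeR adjusted p = 0.826) in SETD3 KO1, where it was 0.7 without replicate 3. Set against each other, SETD3 KO2 minus SETD3 KO1 gave -2.2 (SE 0.47, 95% interval -3.22 to -1.18), with an edgeR adjusted p of 0.247 that became 0.00217 without a filter on low counts and 0.00329 in DESeq2. Averaged over both lines the TNS4 difference from SETD3 CT was 0 (95% interval -0.91 to 0.92).

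The other tensins did not pass the test in any comparison. TNS2, which links integrins to actin, measured 17.6, 4.35 and 9.86 CPM in SETD3 KO1, against 37.1, 42.8 and 24.4 CPM in SETD3 CT. These groups did not overlap, and the log2 fold change was -1.71 (95% interval -3.25 to -0.18, edgeR adjusted p = 0.826). It was -1.31 without SETD3 KO1 replicate 2. TNS2 exons overlap SPRYD3 on the opposite strand, and without the strand setting of the counting their reads cannot be told apart. TNS3 had 1.26 to 16.3 CPM and TNS1 0 to 12.1 CPM over all libraries, levels at which the 95% intervals were wide, such as -0.11 to 2.84 for TNS3 in ACTB-mut against Actin KO.

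**Figure D2:**
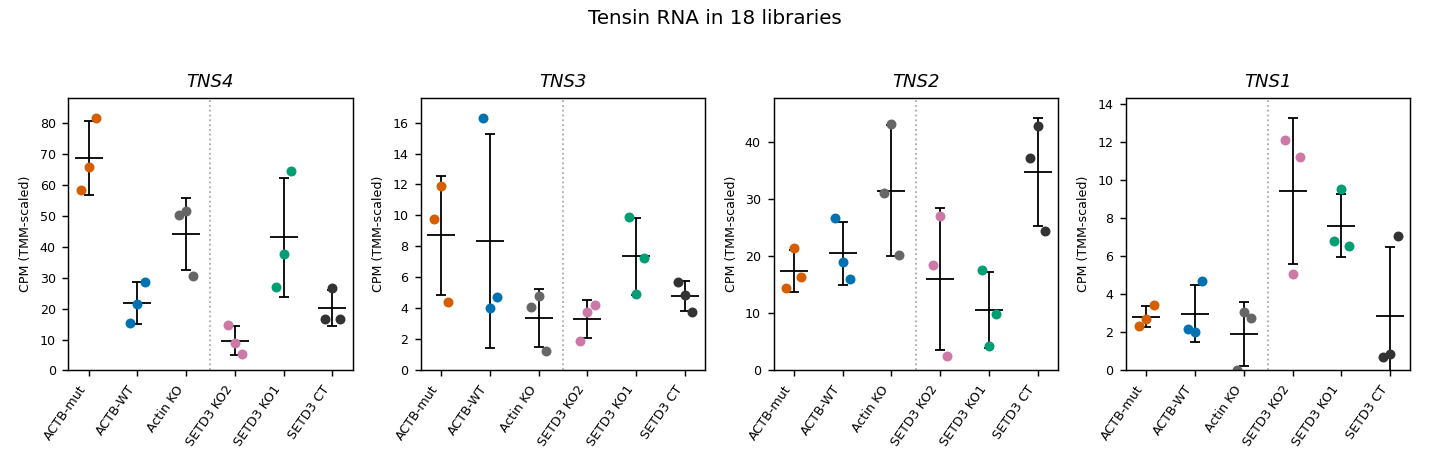
TMM-scaled CPM of the 4 tensin genes in each of 18 libraries (points), with the mean and SD of 3 libraries (lines); the dotted line parts the ACTB table from the SETD3 table. TNS4 is at 58.4 to 81.8 CPM in ACTB-mut and 15.3 to 28.6 CPM in ACTB-WT, and the other tensins overlap between those groups.

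Talins, vinculin and kindlins form the core that connects integrins to actin. None of these 5 members was called in any comparison. TLN1 (talin-1, the main integrin activator) was lower in level in ACTB-mut, with 37.1, 83.5 and 109 CPM, against 124, 121 and 123 CPM in ACTB-WT and 119, 129 and 137 CPM in Actin KO. All ACTB-mut libraries were below all others of the table, by very different amounts. Talin-1 had a log2 fold change of -0.75 against Actin KO (95% interval -1.32 to -0.18, edgeR adjusted p = 0.258) and -0.69 against ACTB-WT (95% interval -1.25 to -0.12, edgeR adjusted p = 0.297). They depended on replicate 1 of ACTB-mut, without which they were -0.42 and -0.36, and with GC and length offsets they were -0.49 and -0.45. Both differences passed without a filter on low counts, at adjusted p = 0.00916 and 0.0288. TLN1 measured 104, 107 and 75.1 CPM in SETD3 KO2 and 138, 94.9 and 135 CPM in SETD3 KO1, against 139, 135 and 145 CPM in SETD3 CT. SETD3 KO2 lay wholly below SETD3 CT, at a log2 fold change of -0.55 (95% interval -1.04 to -0.07, edgeR adjusted p = 0.874). TLN1 exons overlap CREB3 on the opposite strand.

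VCL (vinculin, which reinforces the talin-actin link under force) measured 69.6, 36 and 66.8 CPM in ACTB-mut and 108, 76.7 and 110 CPM in ACTB-WT, against 74.7, 56.7 and 64.5 CPM in Actin KO. ACTB-WT was above both other groups in every library. For VCL the log2 fold change was -0.77 for ACTB-mut against ACTB-WT (95% interval -1.28 to -0.26, edgeR adjusted p = 0.164) and 0.59 for ACTB-WT against Actin KO (95% interval 0.08 to 1.1, edgeR adjusted p = 0.347). The first passed without a filter on low counts (adjusted p = 0.0254). VCL measured 28.6, 54 and 81.2 CPM in SETD3 KO2 and 70.7, 76.1 and 76.7 CPM in SETD3 KO1, against 50.1, 45 and 54.8 CPM in SETD3 CT. VCL exons overlap AP3M1 on the opposite strand. FERMT1 (kindlin-1, the epithelial kindlin) measured 17.4, 10.7 and 21.3 CPM in ACTB-mut and 10.5, 14.9 and 11.2 CPM in ACTB-WT, against 14.6, 14.5 and 17.7 CPM in Actin KO. In the SETD3 table FERMT1 had 2.55, 13.5 and 24.6 CPM in SETD3 KO2 and 10.8, 14 and 12 CPM in SETD3 KO1, against 18.2, 24.8 and 15 CPM in SETD3 CT. The KO1 and CT libraries did not overlap, while KO2 overlapped both. FERMT2 (kindlin-2) ranged from 1.11 to 35 CPM.

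Paxillin, the LIM-domain scaffold that FAK and SRC phosphorylate, was measured at 131, 142 and 106 CPM in ACTB-mut and 120, 131 and 128 CPM in ACTB-WT, against 189, 143 and 240 CPM in Actin KO. Both add-back groups lay below the knockout in all libraries, by nearly the same amount. The log2 fold change of PXN was -0.59 for each (95% interval -0.97 to -0.21, edgeR adjusted p = 0.173), and ACTB-mut against ACTB-WT was 0 (95% interval -0.38 to 0.38). Replicate 3 of Actin KO set part of the difference, which was -0.4 in both comparisons without it. These comparisons share the Actin KO libraries, so their likeness is not independent. It also depended on the processing. With GC and length offsets the ACTB-mut value was -0.28, while the ACTB-WT value ran from -0.77 to -0.4 over all alternatives. PXN measured 139, 136 and 152 CPM in SETD3 KO2 and 177, 178 and 156 CPM in SETD3 KO1, against 123, 116 and 103 CPM in SETD3 CT. All 6 knockout libraries were above all 3 CT libraries. The log2 fold change for the mean of both lines was 0.45 (95% interval 0.1 to 0.8, edgeR adjusted p = 0.776). PXN-AS1 overlaps PXN on the opposite strand. The paxillin relative TGFB1I1 (Hic-5) ranged from 9.15 to 46.1 CPM, with overlapping groups in every comparison.

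The ILK-PINCH-parvin complex, which ties integrin tails to actin, gave no call. In the ACTB table its 5 members had log2 fold changes between -0.44 and 0.16 in ACTB-mut and between -0.24 and 0.24 in ACTB-WT, both relative to Actin KO. In ACTB-mut relative to ACTB-WT they ranged from -0.68 to 0.41. ILK measured 81.6, 56.5 and 68.1 CPM in ACTB-mut and 60.2, 88.7 and 70.2 CPM in ACTB-WT, against 47.8, 77.8 and 96.3 CPM in Actin KO. ILK also overlapped in the SETD3 table, with 99.3, 69.7 and 47.8 CPM in SETD3 KO2 and 84.6, 64.4 and 90.1 CPM in SETD3 KO1, against 57.4, 127 and 59.9 CPM in SETD3 CT. The interval for ACTB-mut against ACTB-WT ran from -0.61 to 0.43 around a log2 fold change of -0.09, which leaves smaller changes undetectable at this depth. ILK exons overlap TAF10 on the opposite strand.

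The parvins bind actin on behalf of ILK. PARVA (alpha-parvin) measured 42.2, 38.9 and 68.4 CPM in ACTB-mut and 82.9, 56.7 and 34.3 CPM in ACTB-WT, against 58.2, 63.2 and 55.1 CPM in Actin KO. In the SETD3 table PARVA had 9.55, 52.4 and 48.5 CPM in SETD3 KO2 and 22.5, 39.7 and 24.6 CPM in SETD3 KO1, against 46.6, 58.1 and 25.6 CPM in SETD3 CT. PARVA overlapped between groups throughout. PARVB (beta-parvin) measured 13.6, 16.3 and 6.72 CPM in ACTB-mut and 19.3, 20.6 and 19.2 CPM in ACTB-WT, against 18, 17.3 and 14.5 CPM in Actin KO. It was highest in ACTB-WT in all libraries, with a log2 fold change of -0.68 for ACTB-mut against ACTB-WT (95% interval -1.46 to 0.09, edgeR adjusted p = 0.487) that was -0.4 without ACTB-mut replicate 3. LIMS1 (PINCH1, the LIM adaptor of ILK) measured 87.6, 69.4 and 77.4 CPM in ACTB-mut, against 47.1, 64.9 and 64.5 CPM in ACTB-WT. These LIMS1 groups did not overlap, at a log2 fold change of 0.41 (95% interval -0.04 to 0.86, edgeR adjusted p = 0.474) that was 0.27 without ACTB-WT replicate 1 and 0.24 with GC and length offsets.

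**Figure D3:**
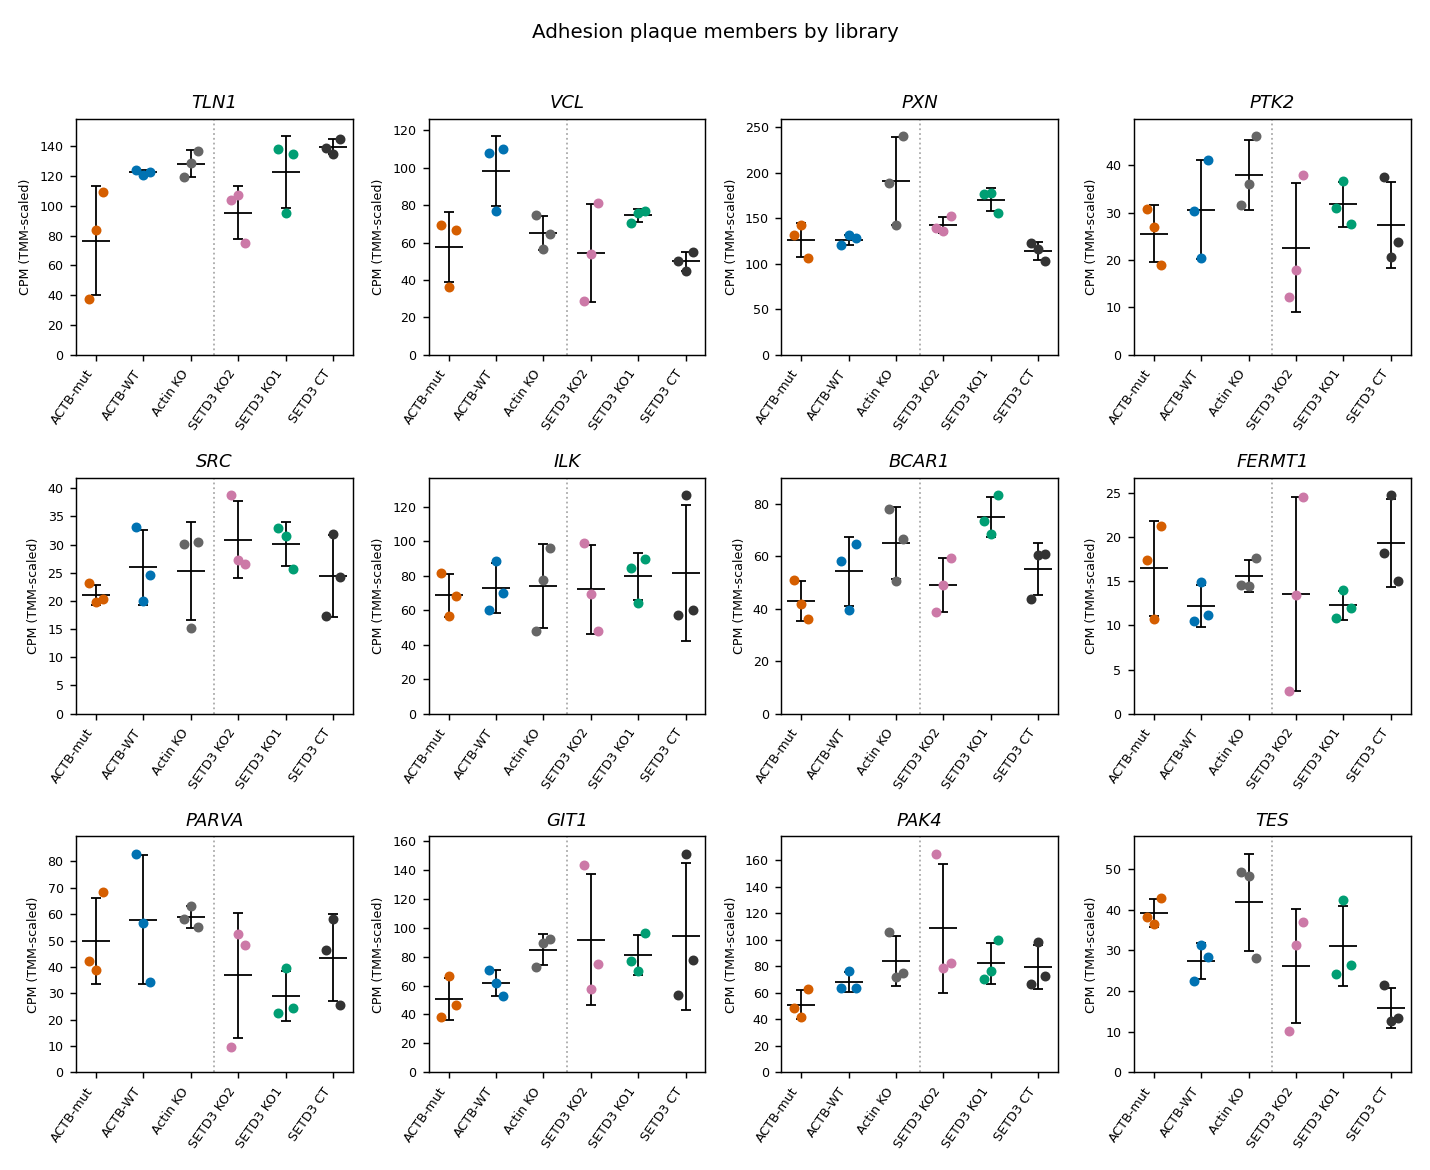
TMM-scaled CPM of 12 plaque genes in each of 18 libraries (points), with the mean and SD of 3 libraries (lines); the dotted line parts the tables. TLN1 is spread from 37.1 to 109 CPM in ACTB-mut beside 121 to 124 CPM in ACTB-WT, and PXN is highest in Actin KO, at 143 to 240 CPM.

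The 7 tyrosine kinases and kinase-like scaffolds gave no call. PTK2 (FAK, the first kinase recruited to integrins) measured 30.8, 26.9 and 18.9 CPM in ACTB-mut and 30.4, 20.4 and 41.1 CPM in ACTB-WT, against 31.6, 36 and 46.1 CPM in Actin KO. ACTB-mut lay below Actin KO in all libraries, at a log2 fold change of -0.57 (95% interval -1.21 to 0.07, edgeR adjusted p = 0.507). PTK2 measured 12.1, 17.8 and 37.9 CPM in SETD3 KO2 and 30.9, 36.7 and 27.5 CPM in SETD3 KO1, against 37.6, 20.6 and 23.7 CPM in SETD3 CT. SRC (the kinase that FAK brings to the plaque) measured 23.1, 19.8 and 20.3 CPM in ACTB-mut and 33.2, 20 and 24.6 CPM in ACTB-WT, against 30.1, 15.2 and 30.5 CPM in Actin KO. SRC had 38.8, 27.3 and 26.6 CPM in SETD3 KO2 and 33, 31.6 and 25.6 CPM in SETD3 KO1, against 17.3, 31.9 and 24.2 CPM in SETD3 CT. Its groups overlapped in all comparisons. The SRC relatives differed in level, with FYN at 1.52 to 13.4 CPM and YES1 at 7.96 to 44.4 CPM, and CSK ranged from 72.3 to 137 CPM.

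In the p130Cas-Crk-DOCK module, which passes FAK and SRC signals to the GTPase RAC, no member was called. BCAR1 did not overlap between the SETD3 lines, as was so for 11.9% of all tested genes. It measured 38.8, 49.2 and 59.5 CPM in SETD3 KO2, against 73.5, 68.4 and 83.4 CPM in SETD3 KO1, with SETD3 CT at 43.6, 60.5 and 61 CPM. SETD3 KO2 was below SETD3 KO1 in all libraries, at a log2 fold change of -0.61 (95% interval -1.16 to -0.05, edgeR adjusted p = 0.999). In the ACTB table BCAR1 had 51.1, 41.9 and 36 CPM in ACTB-mut and 58.3, 39.6 and 64.8 CPM in ACTB-WT, against 78, 50.6 and 66.8 CPM in Actin KO. CRK (the adaptor that binds phosphorylated p130Cas and paxillin) ranged from 67 to 154 CPM and its paralogue CRKL from 4.88 to 27 CPM. DOCK1 and ELMO2, which together form an exchange factor for RAC, reached at most 12.2 and 27.3 CPM.

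The GIT-PIX-PAK module, in which GIT and PIX proteins bring PAK kinases to paxillin, held members lower in level in ACTB-mut and a member higher in level in both SETD3 lines, all short of the threshold. In ACTB-mut against Actin KO, 3 of its 6 members were lower and 3 were higher, with GIT2 at 0.55 (95% interval -0.62 to 1.71). GIT1 measured 38.5, 66.8 and 46.7 CPM in ACTB-mut and 71, 61.7 and 52.5 CPM in ACTB-WT, against 72.7, 89.6 and 92.1 CPM in Actin KO. Both add-back groups were below Actin KO in all libraries. GIT1 had a log2 fold change of -0.74 for ACTB-mut (95% interval -1.21 to -0.28, edgeR adjusted p = 0.16) and -0.46 for ACTB-WT (95% interval -0.93 to 0.01, edgeR adjusted p = 0.452). PAK4 measured 48.6, 41.5 and 63.3 CPM in ACTB-mut and 63.4, 76.6 and 64 CPM in ACTB-WT, against 106, 71.8 and 74.7 CPM in Actin KO. ACTB-mut was the lowest group in all libraries, at -0.72 relative to Actin KO (95% interval -1.17 to -0.27, edgeR adjusted p = 0.159). In DESeq2 the ACTB-mut against Actin KO differences of GIT1 and PAK4 passed, at adjusted p = 0.0285 and 0.0301. With GC and length offsets they were -0.46 and -0.45, and neither passed.

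ARHGEF7 (beta-PIX, the exchange factor that binds GIT1) measured 22.6, 15.3 and 16.1 CPM in SETD3 KO2 and 17.5, 18 and 8.8 CPM in SETD3 KO1, against 6.4, 7.09 and 5.43 CPM in SETD3 CT. All 6 knockout libraries were above all 3 CT libraries. For ARHGEF7 it was a log2 fold change of 1.37 for the mean of both lines (SE 0.42, 95% interval 0.46 to 2.28, edgeR adjusted p = 0.599), 1.51 for SETD3 KO2 and 1.23 for SETD3 KO1. It ranked 147th of 13846 genes by p. No such separation was seen in the ACTB table, where ARHGEF7 ranged from 4.79 to 14.2 CPM. ARHGEF7-AS2 overlaps it on the opposite strand. PAK1 had 4.21 to 29.2 CPM and PAK2 had 5.32 to 40.8 CPM, both lowest in SETD3 CT replicate 2, the shallowest of the control libraries.

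Among the remaining members, SORBS3 measured 136, 155 and 239 CPM in ACTB-mut and 197, 227 and 173 CPM in ACTB-WT, against 257, 250 and 278 CPM in Actin KO. Both add-back groups were below Actin KO in all libraries. The log2 fold change for ACTB-mut was -0.57 (95% interval -0.96 to -0.18, edgeR adjusted p = 0.199), and without ACTB-mut replicate 3 it was -0.86 and passed (adjusted p = 0.0298). It also passed without a filter on low counts (adjusted p = 0.0376) and in DESeq2 (adjusted p = 0.0389), as PXN did in DESeq2 (adjusted p = 0.0281). The SORBS3 value was weaker in other runs. Without ACTB-mut replicate 1 it was -0.41, and with GC and length offsets -0.3, and neither passed. TES (testin, a LIM protein of adhesions and stress fibres) measured 38.3, 36.4 and 42.9 CPM in ACTB-mut and 22.5, 31.2 and 28.4 CPM in ACTB-WT, against 49.2, 48.2 and 28.1 CPM in Actin KO. ACTB-mut was above ACTB-WT in all libraries, at a log2 fold change of 0.52 (95% interval -0.04 to 1.07, edgeR adjusted p = 0.459) that was 0.31 with GC and length offsets. In SETD3 KO1, TES had 24.3, 42.3 and 26.5 CPM, against 21.5, 12.6 and 13.4 CPM in SETD3 CT, at 0.96 (95% interval -0.05 to 1.97, edgeR adjusted p = 0.887). KANK2, which ties adhesions to microtubule capture sites, ranged from 20 to 46 CPM, and ARHGAP35 (a GTPase-activating protein) from 29.5 to 73.7 CPM.

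Read as a set in the ACTB table, the 43 tested members held few calls. In ACTB-mut against Actin KO no member was called, where 0.922% of all tested genes were, and 9 members had an unadjusted p below 0.05 in edgeR, beside 11.5% of all tested genes. Of the 9, 8 were lower in ACTB-mut, or 18.6% of the members, beside 6.41% of all tested genes. The 9 became 5 with GC and length offsets, under which PXN was -0.28, SORBS3 -0.3, BCAR1 -0.29, GIT1 -0.46 and PAK4 -0.45 on the log2 scale. The groups did not overlap and ACTB-mut was lower for 7 members, or 16.3%, beside 9.16% of all tested genes. Over both directions the share without overlap was 18.6%, beside 18.5%, which is near the background. The median log2 fold change was -0.09 for the members and 0.03 for all tested genes. In ACTB-WT against Actin KO no member was called, where 1.12% of all tested genes were, and 7 members had an unadjusted p below 0.05, beside 11.2% of all. The groups did not overlap for 6 members, or 14%, beside 16.7% of all. The median was -0.16 for the members and -0.01 for all tested genes. In ACTB-mut against ACTB-WT, 4 members had an unadjusted p below 0.05, beside 12% of all, and 8 members, or 18.6%, did not overlap, beside 18.1% of all. The median was -0.09 for the members and 0.02 for all. These medians moved with single libraries. With 1 left out they ran from -0.17 to 0.01 in ACTB-mut against Actin KO (turning sign without ACTB-mut replicate 2), from -0.24 to -0.07 in ACTB-WT against Actin KO and from -0.21 to -0.04 in ACTB-mut against ACTB-WT. The 3 comparisons share libraries pairwise. The summed level of the 43 tested members was 1425 to 1594 CPM in ACTB-mut and 1574 to 1623 CPM in ACTB-WT. It was 1752 to 1903 CPM in Actin KO. In the SETD3 table, which was scaled on its own, the SETD3 CT libraries alone ran from 1570 to 1919 CPM. Abundant members weigh most in such a sum. SORBS3 had a mean of 262 CPM in Actin KO and 176 CPM in ACTB-mut, and PXN had 190 and 126 CPM. Counted by gene, 23 members were lower and 20 higher in ACTB-mut against Actin KO. The summed level was not tested.

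**Figure D4:**
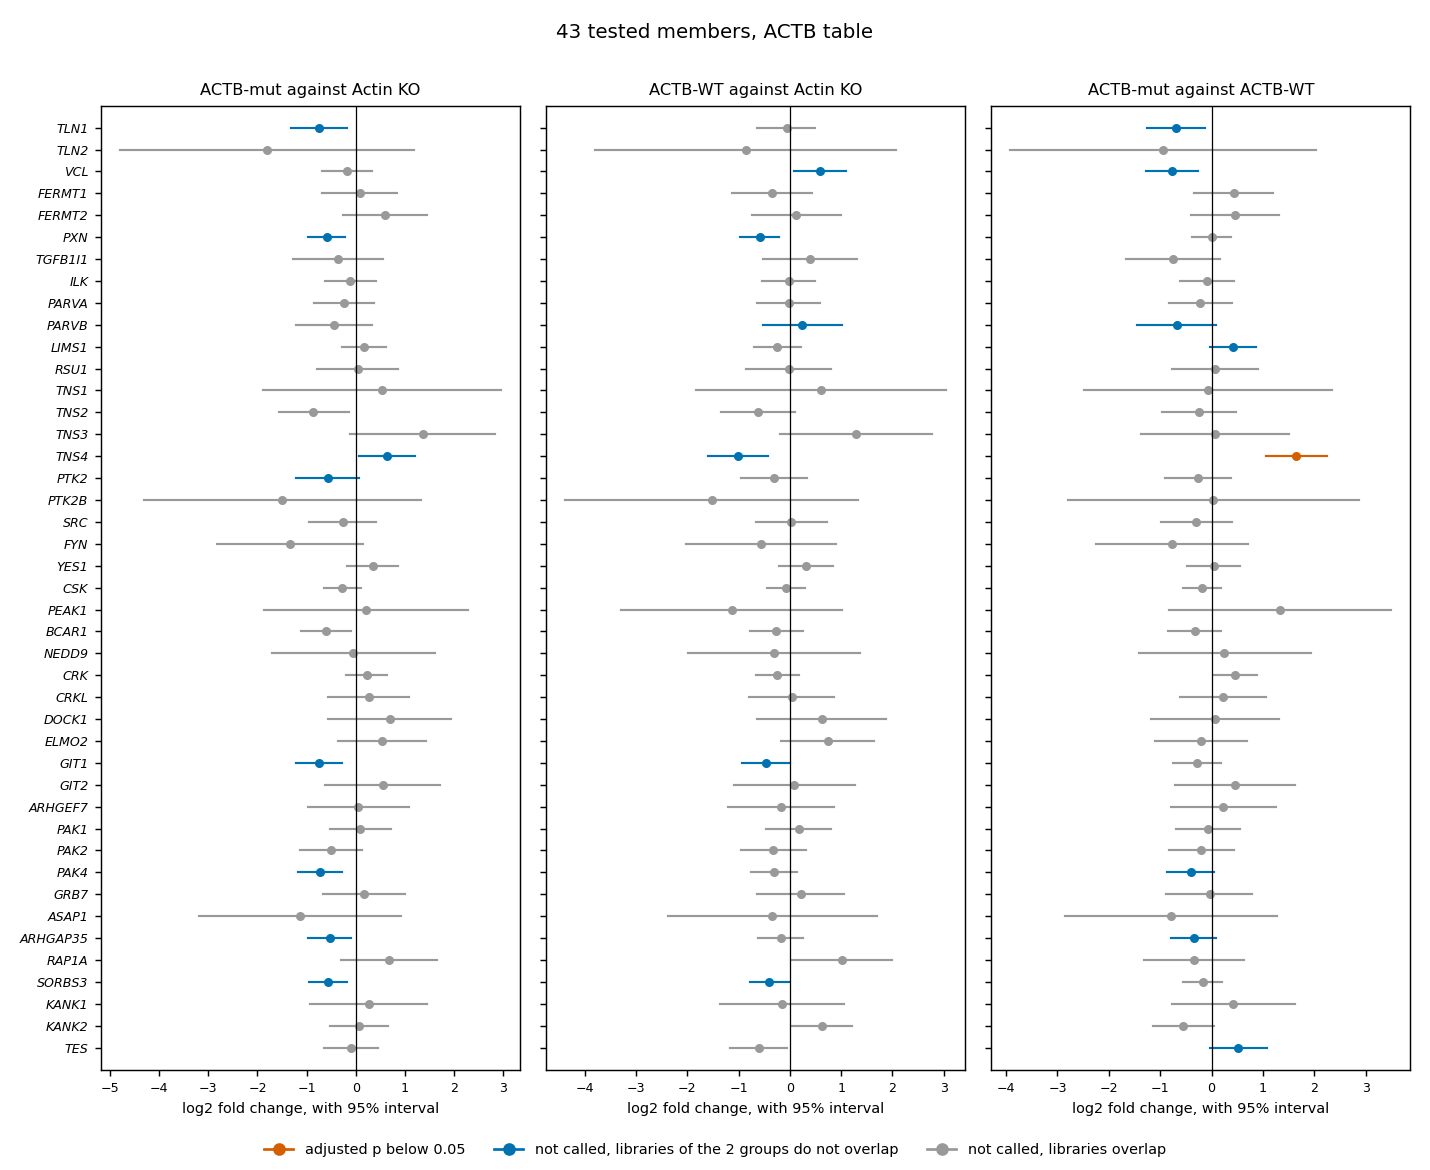
Log2 fold changes with 95% intervals (edgeR) of the 43 tested genes in the ACTB table, by comparison. Colour marks the call and whether libraries overlap. TNS4 in ACTB-mut against ACTB-WT, at 1.65, is the single call.

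In the SETD3 table no member was called in any comparison. All tested genes were called at 0.0578% in SETD3 KO2 against SETD3 CT, 0.0144% in SETD3 KO1 against SETD3 CT, 0.0433% for the mean of both lines and 0.0289% in SETD3 KO2 against SETD3 KO1. Members with an unadjusted p below 0.05 in edgeR numbered 3 in SETD3 KO2, beside 4.95% of all tested genes, and 4 in SETD3 KO1, beside 5.75%. They numbered 3 for the mean of both lines, beside 5.68%, and 2 between the lines, beside 4.84%. Groups did not overlap for 5 members (11.6%) in SETD3 KO2, beside 10.2% of all tested genes, and for 8 members (18.6%) in SETD3 KO1, beside 13.2%. All knockout libraries lay on the same side of SETD3 CT for 2 members (4.65%, ARHGEF7 and PXN), beside 3.26%. The members' median log2 fold change was -0.01 in SETD3 KO2 (-0.04 to 0.08 with 1 library left out) and 0.21 in SETD3 KO1 (0.12 to 0.3), beside -0.01 and -0.02 for all tested genes. The 95% interval of a member reached a median of 1.07 log2 units to each side of its fold change, and 0.72 in the ACTB table. Most changes smaller than that were therefore not detectable. Larger ones could also miss the adjusted threshold, as TNS4 did at -2.2 between the SETD3 lines (edgeR adjusted p = 0.247). Between the lines, 5 members (11.6%) did not overlap, beside 11.9% of all tested genes. All 5 (TNS4, BCAR1, PXN, TNS3 and DOCK1) were lower in SETD3 KO2, beside 5.76% of all tested genes that were lower without overlap.

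**Figure D5:**
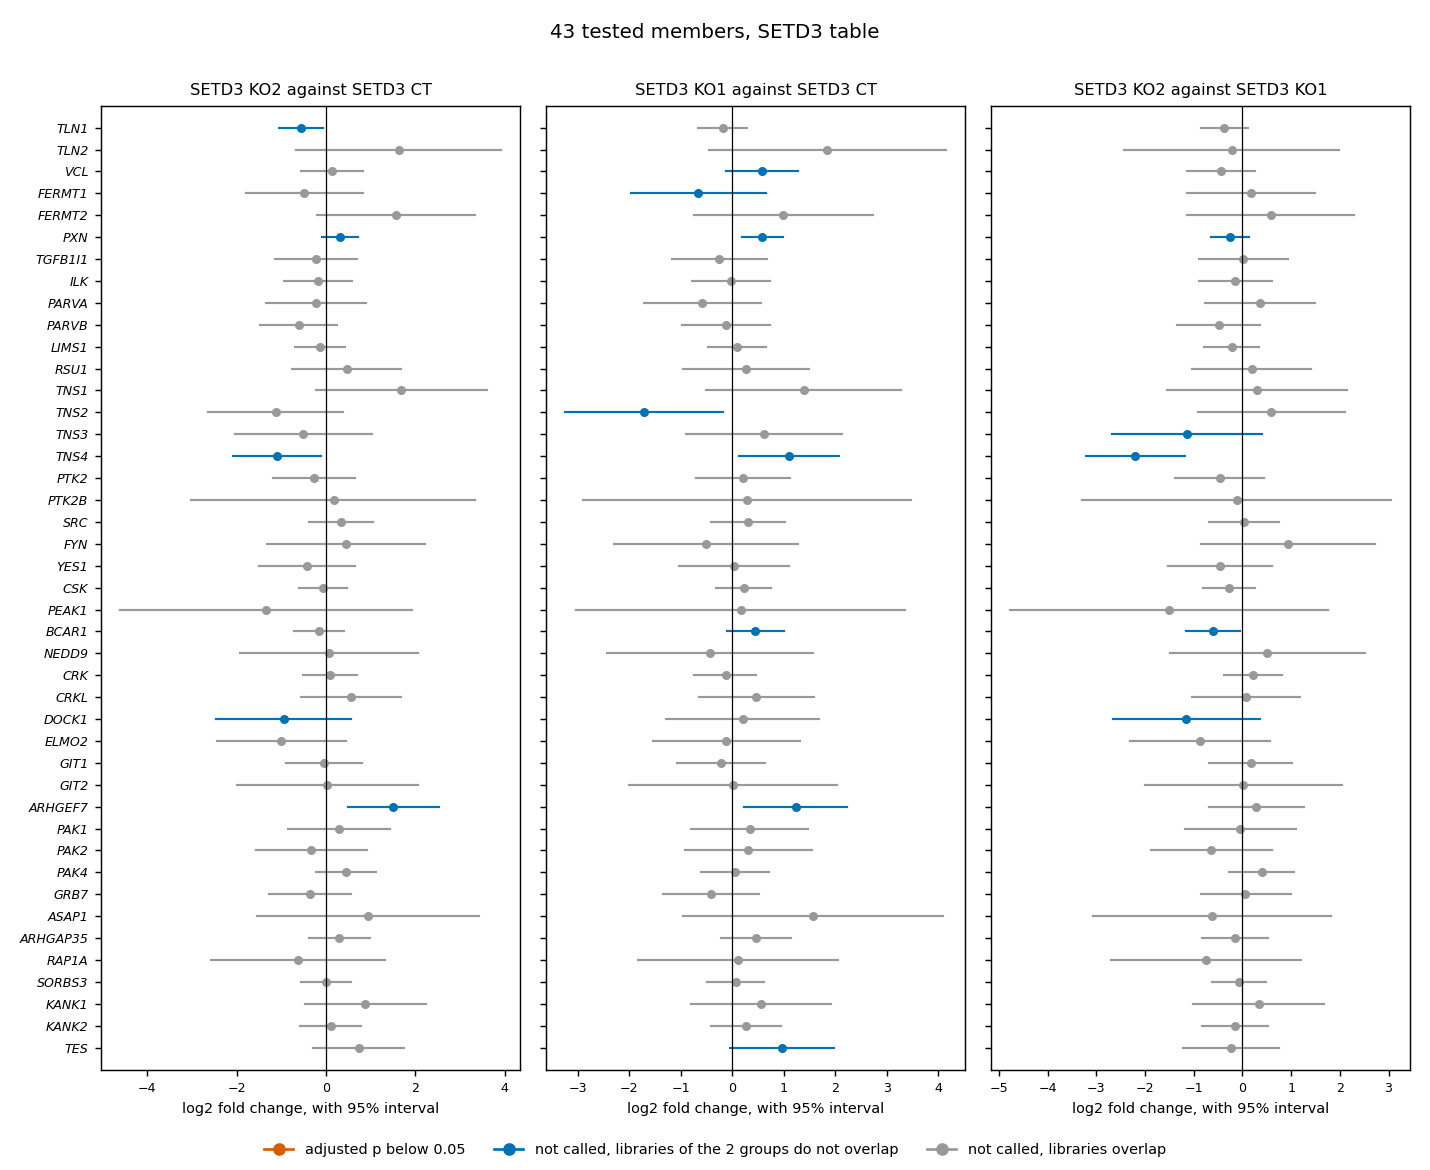
Log2 fold changes with 95% intervals (edgeR) of the 43 tested genes in the SETD3 table, by comparison. No gene was called. TNS4 lies at -1.1 in SETD3 KO2 and 1.11 in SETD3 KO1, and ARHGEF7 is above 0 in both.

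Neighbours of these proteins in the adhesion were read from lists of integrins, of actin linkers with LIM-domain partners, and of other adaptors, small GTPases and phosphatases. These lists too were chosen with earlier results of these data known, so their counts are a description. In ACTB-mut against Actin KO, where 0.922% of all tested genes were called, 2 of 14 tested integrins fell and none rose, and of 20 tested actin linkers 3 fell and 1 rose. In ACTB-WT against Actin KO, where 1.12% of all tested genes were called, 1 integrin fell, and 2 linkers fell and 2 rose. In ACTB-mut against ACTB-WT, where 1.24% of all tested genes were called, 1 integrin rose and 2 linkers fell. The integrin of these last 2 comparisons is ITGA6 in each. ITGA6 had no count in any ACTB-WT library and passed the filter on low counts through the other groups. Its calls are therefore a description and are not to be set against those shares. None of 28 tested adaptors, GTPases and phosphatases was called in the ACTB table, and none of the 3 lists held a call in the SETD3 table.

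Among the linkers, PDLIM5 (a PDZ-LIM protein that binds alpha-actinin) rose and ZYX (zyxin, a LIM protein that senses strain on actin) fell in both add-back groups. PDLIM5 measured 138, 123 and 125 CPM in ACTB-mut and 148, 128 and 121 CPM in ACTB-WT, against 26.3, 49.2 and 44.2 CPM in Actin KO. Its log2 fold change was 1.69 in ACTB-mut (SE 0.21, edgeR adjusted p = 0.00114) and 1.73 in ACTB-WT (SE 0.21, edgeR adjusted p = 0.000385). ZYX measured 154, 205 and 263 CPM in ACTB-mut and 152, 256 and 221 CPM in ACTB-WT, against 434, 460 and 494 CPM in Actin KO. Its log2 fold change was -1.16 in ACTB-mut (SE 0.2, edgeR adjusted p = 0.0104) and -1.14 in ACTB-WT (SE 0.2, edgeR adjusted p = 0.00754). These 2 comparisons share the Actin KO libraries. EVL (an Ena/VASP protein that extends actin filaments) fell in ACTB-mut, with 3.32, 5.09 and 2.79 CPM, against 20.7, 27.4 and 19.3 CPM in ACTB-WT. Its log2 fold change was -2.58 (SE 0.39, edgeR adjusted p = 0.00374), and it was -1.94 against Actin KO (adjusted p = 0.0222). FLNA (filamin A, an actin crosslinker that binds integrin tails) measured 448, 307 and 505 CPM in ACTB-mut and 733, 630 and 700 CPM in ACTB-WT, against 722, 741 and 838 CPM in Actin KO. FLNA fell in ACTB-mut by 0.71 relative to ACTB-WT (adjusted p = 0.0309) and by 0.87 relative to Actin KO (adjusted p = 0.0122) on the log2 scale, and both calls were lost with GC and length offsets. In ACTB-WT against Actin KO, TRIP6 (a zyxin relative) fell, at 432 against 648 CPM, and PALLD (palladin, an actin-bundling protein) rose, at 47.2 against 17.3 CPM.

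Among the integrins, ITGA3 (the alpha chain of a laminin receptor) fell in ACTB-mut, with 152, 126 and 190 CPM, against 305, 282 and 336 CPM in Actin KO. Its log2 fold change was -0.98 (SE 0.15, edgeR adjusted p = 0.00529). ITGB4, the beta chain of the hemidesmosome integrin, fell as well, with 96.8, 109 and 135 CPM in ACTB-mut, against 235, 204 and 229 CPM in Actin KO (log2 fold change -0.97, SE 0.17, edgeR adjusted p = 0.0121). ITGA6, which pairs with ITGB4, measured 3.15, 5.79 and 10.4 CPM in ACTB-mut and had no count in any ACTB-WT library, against 5.04, 12.9 and 0.799 CPM in Actin KO. In an ACTB-WT library 3 counts would be 0.403 to 0.597 CPM. ITGA6 passed the filter on low counts through the groups in which it had counts, so its calls in the comparisons with ACTB-WT are given as a description. With only ACTB-WT and Actin KO in the fit it was not tested. Of the 14 calls on list genes, 5 held in every alternative, those of PDLIM5 and of ZYX in ACTB-WT, of PDLIM5 and ITGA3 in ACTB-mut against Actin KO, and of EVL in ACTB-mut against ACTB-WT. Each of the other 9 was lost when some library was left out. ZYX and FLNA in ACTB-mut against Actin KO were called in 5 of 6 such fits and lost without Actin KO replicate 3. ITGB4, PALLD, and ITGA6 in ACTB-mut against ACTB-WT were called in 2 of 6 fits, and TRIP6, EVL against Actin KO, FLNA against ACTB-WT, and ITGA6 in ACTB-WT against Actin KO in 1 of 6.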

How the data were processed

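Gene-level RNA was measured in 18 libraries, of which 17 bore the cell line label HCT-116 and 1 HCT-117. The authors deposited unnormalised expected counts of each gene, as RSEM estimates them. Per the submitters' processing notes, the authors used Trim Galore 0.4.5, cutadapt 1.15, RSEM 1.2.28 and Bowtie2 on GRCh38. Strand setting and annotation release are not given in the sources used here. RSEM divides reads shared between genes, so its estimates need not be whole. Whole values, within 0.005, made up 83.4% (ACTB table) and 83.8% (SETD3 table).

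Counts were rounded to whole numbers, filtered with filterByExpr, scaled by TMM and tested with edgeR 4.0.16 (R 4.3.3, limma 3.58.1), with robust quasi-likelihood F tests on all 3 groups of a table in a single fit. After filtering, 13882 genes were tested among the actin groups and 13846 among the SETD3 groups. P-values were two-sided and adjusted by Benjamini-Hochberg across every tested gene, and genes with adjusted p below 0.05 were called. The SE is the absolute log2 fold change over the square root of F. Intervals are at 95%. The tables were tested separately, in 7 comparisons. Levels set across the tables are not tested, since each table was scaled on its own. Total counts of 3389586 to 11652967 limit the precision for rare transcripts.

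Values in every library are given for called members, for 9 core members and, per comparison, for up to 3 higher and 3 lower members with the largest fold change among those whose groups did not overlap and whose higher mean was 10 CPM or more. SORBS3 was added after its values were seen. Alternatives changed the filter, the normalisation, the test (DESeq2 1.42.0), the replicate block, GC and length offsets, the groups in the fit and the libraries. The tests were tested on simulated data. Members, lists and rules were chosen with earlier results of these data known. Coordinates, lengths and exon overlaps came from GENCODE 29.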

Additional observations from a re-analysis of the deposited data

Results flagged for a closer look

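TNS4 was flagged because its effects relative to a shared control lay on opposite sides in both tables. This pattern was looked for among the tested members only. Its share over all tested genes was not counted, so how unusual it is cannot be said. In the ACTB table every ACTB-mut library was above every Actin KO library and every ACTB-WT library was below. The difference between the effects, which equals ACTB-mut against ACTB-WT, was 1.65 on the log2 scale and passed the edgeR test (adjusted p = 0.0092). In the SETD3 table every SETD3 KO2 library was below every SETD3 CT library and every SETD3 KO1 library was above. That difference, SETD3 KO2 against SETD3 KO1, was -2.2 and did not pass the edgeR test (adjusted p = 0.247).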

How the results depend on the processing

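TNS4 in ACTB-mut against ACTB-WT was called in every alternative run. Member counts elsewhere depended on the filter and the test. Without a filter on low counts 3 members were called in ACTB-mut against ACTB-WT (TNS4, VCL and TLN1), 3 in ACTB-mut against Actin KO, 1 in ACTB-WT against Actin KO and 1 in SETD3 KO2 against SETD3 KO1. In DESeq2 these were 4 in ACTB-mut against Actin KO and 1 in each of ACTB-WT against Actin KO and SETD3 KO2 against SETD3 KO1. Leaving out 1 library at a time gave 1 to 1 members in ACTB-mut against ACTB-WT, 0 to 1 in ACTB-mut against Actin KO (SORBS3, without ACTB-mut replicate 3), and 0 in the other 5 comparisons.

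Calls over all genes moved more. In ACTB-mut against ACTB-WT (172 calls) they were 402 without a filter, 446 in DESeq2, 104 with only the groups compared in the fit and 60 to 129 with 1 library left out. In ACTB-mut against Actin KO (128 calls) they were 371, 395 and 34 to 77 without a filter, in DESeq2 and with 1 library left out. In ACTB-WT against Actin KO (155 calls) they were 320, 358 and 79 to 106 in the same order. In SETD3 KO2 against SETD3 CT (8 calls) they were 68 without a filter, 90 in DESeq2, 25 with GC and length offsets, 1 with only the groups compared and 3 to 7 with 1 library left out. In SETD3 KO1 against SETD3 CT (2 calls) these were 58, 72, 9, 1 and 0 to 4, beside 4 with at least 5 CPM in 3 libraries. For the mean of both lines (6 calls) they were 85 without a filter, 91 in DESeq2, 10 with offsets and 0 to 7 with 1 library left out. In SETD3 KO2 against SETD3 KO1 (4 calls) they were 58, 56, 17 and 3 to 5. Without the 2 shallowest libraries, an alternative chosen after seeing the data, 10 genes were called in each of SETD3 KO1 against SETD3 CT and SETD3 KO2 against SETD3 KO1, and no member. The cause was not tested.

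The replicate numbers did not pair the samples: same-numbered libraries had correlations of -0.15 to 0.15 (ACTB table) and -0.55 to 0.21 (SETD3 table), with 2 of 9 pairs above 0.1 in each. These are correlations of deviations from the group mean. Some unlike-numbered SETD3 libraries shared deviations. SETD3 CT replicate 2 correlated at 0.56 with SETD3 KO2 replicate 1, the other shallow library, and at -0.52 with SETD3 KO2 replicate 3. SETD3 CT replicate 1 correlated with the latter at 0.52. What they share was not tested. With the replicate block, calls over all genes were 83 in ACTB-mut against ACTB-WT, 85 in ACTB-mut against Actin KO, 89 in ACTB-WT against Actin KO, 1 in SETD3 KO2 against SETD3 CT, 0 in SETD3 KO1 against SETD3 CT and 0 for the mean, and TNS4 in ACTB-mut against ACTB-WT had a log2 fold change of 1.66 (edgeR adjusted p = 0.0289).

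The 44 member fold changes followed are pairs of a gene and a comparison. Many were picked because their groups did not overlap, and for those a turn of sign is unlikely with 1 library left out. Of the 44, 5 leave-one-out values turned sign, all of differences near 0: ILK in ACTB-mut against ACTB-WT (-0.24 to 0.08), PARVA (-0.52 to 0.12) and PTK2 (-0.48 to 0.01) in the same comparison, and VCL in ACTB-mut against Actin KO (-0.35 to 0.06). With GC and length offsets the member median was -0.03 in ACTB-mut against Actin KO, -0.16 in ACTB-WT against Actin KO and -0.04 in ACTB-mut against ACTB-WT.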
